A study of Mus musculus with 16 samples.

Results

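The hindbrain forms from the neural tube behind the midbrain and becomes divided into segments called rhombomeres. Hox genes are switched on in nested domains along this axis, so that the genes at one end of each cluster are expressed up to the hindbrain and the genes at the other end stop in the spinal cord, whereas OTX2 marks the forebrain and midbrain. Within the hindbrain EGR2 (also called KROX20) is a transcription factor of particular rhombomeres, and HOXB1 marks a rhombomere that later yields facial motor neurons. Their SOX2-positive progenitors divide at the inner wall of the tube before they become neurons. STAT3 is the transcription factor that carries signals from receptors of the LIF and IL-6 family.

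The cells described here were those to which the study's label transfer gave the name Hindbrain neural progenitors, in chimeric mouse embryos profiled by droplet-based single-cell RNA-seq. They numbered 488 of 37841 analysed cells (1.29%), of 87 named types, and came from 12 of 16 libraries. Donor cells were embryonic stem cells (ESCs) of the CD1 background homozygous for a Stat3 allele in which several internal exons are replaced by a neomycin resistance gene, with a stable H2B-tdTomato reporter driven by the CAG promoter. Reporter lines came from picked colonies, and how many lines were injected is not given in the sources used here. These null ESCs were injected into CD1 wild-type (WT) blastocysts, and the chimeras were dissociated on embryonic day (E) 7.5, on E8.5 or on E9.5 and sorted into tdTomato-positive (null) and tdTomato-negative (WT host) fractions. No label names a further agent or treatment. Loss of Stat3 and any other difference between the donor ESCs and their hosts cannot be told apart. Embryos were pooled at the earlier stages and taken singly at E9.5, and the study's methods describe fewer E9.5 embryos than there are E9.5 libraries of a genotype, so p-values measure only the spread between libraries, which may be technical. The letters A to D tell the libraries of a group apart and carry no order.

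No cell of this name was found among 5038 analysed E7.5 cells, a count that allows at most 0.0595%. At E8.5 there were 70 cells, 15 and 17 in WT libraries A and B and 29 and 9 in null libraries A and B. At E9.5 there were 418 cells, 98, 78, 41 and 39 in WT libraries A to D and 79, 41, 24 and 18 in null libraries A to D. The libraries held between 193460 and 3251689 unique molecular identifiers (UMIs, each standing for 1 captured transcript) in these cells, with medians of 15354 to 48065 UMIs per cell. None of the 488 cell barcodes was shared between libraries. Levels below are CPM, the UMIs of a gene in the labelled cells of a library per 1000000 UMIs of those cells. Their intervals and limits cover counting error only.

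Stat3 itself was counted at 6.2, 3.3, 1.8 and 0.8 CPM in the E9.5 WT libraries and at 1.2, 2.4, 0.9 and 1.2 CPM in the E9.5 null libraries, and at E8.5 it was seen only in WT library B (3.0 CPM). The groups overlapped and the gene was too low to be tested at E9.5. The 3' tags that were counted can lie outside the deleted exons, so that this level does not check the genotype. As a check of the sort, tdTomato was detected in 98.7%, 97.6%, 100% and 100% of the cells of E9.5 null libraries A to D, in 26 of 29 cells of E8.5 null library A and in 6 of 9 cells of E8.5 null library B. A further 14 cells from WT fractions of E9.5 that held a tdTomato UMI were left out. E8.5 null library B stood apart in Grb10: its level of Grb10, an imprinted gene for an adaptor that restrains growth factor signalling, was 320.5 CPM, against 18.6 CPM in E8.5 null library A and 254 and 249 CPM in the E8.5 WT libraries, and in its tdTomato-positive cells alone it was 276 CPM. The same 6 tdTomato-positive cells held Cwc22 at 153 CPM (21 UMIs) and Zdbf2 at 247 CPM (34 UMIs), above every WT library of both stages. Their Hist1h4i was 7.3 CPM, below every WT library, but this is 1 UMI. The 3 cells of that library without a tdTomato UMI held Hist1h4i at 53.8 CPM (3 UMIs) and Grb10 at 430 CPM (24 UMIs). Zdbf2 was 179 CPM (10 UMIs) and Cwc22 89.6 CPM (5 UMIs) in these 3 cells. In the library labelled E8.5 null B the reporter, Cwc22 and Zdbf2 therefore went one way and Grb10 the other. The counts of genes called at E8.5 are given with and without this library.

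The name rested on weak matches. Each cell took the most frequent type among its 25 nearest cells of a reference atlas, and the deposited score is the fraction of those neighbours that carried the winning name. For these cells the median score was 0.44 and the range was 0.20 to 0.76, and 150 of them (30.7%) reached 0.5. Over all analysed cells the median was 0.84, and 86.4% reached 0.5. Among the 87 types only 2 had a lower median. Progenitors labelled as ventral and dorsal hindbrain both had medians of 0.76, those labelled as spinal cord 0.72, as midbrain/hindbrain boundary 0.64 and as dorsal spinal cord 0.60.

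Of the marker genes Sox2 was common in these cells and Egr2 was rare. To compare shares of cells between depths, each cell was thinned to 10000 UMIs. Sox2, the neural progenitor factor, was detected in 92.9% of the labelled cells at E8.5 and 96.4% at E9.5. Egr2 was detected in 2 of 70 cells (2.9%, exact binomial 95% interval 0.35% to 9.94%) at E8.5 and in 0 of 418 cells at E9.5, a count that, by the limit of 3 counts of the total, allows a share of up to 0.718%. Without thinning 3 of 70 and 1 of 418 cells held an Egr2 UMI. In dorsal hindbrain progenitors the shares with Egr2 were 10.1% and 2.7%, and in ventral hindbrain progenitors 8.2% and 0.7%, of which the 8.2% lies inside the interval of the labelled cells and the 0.7% near their limit. Dorsal spinal cord progenitors, which should lack Egr2, held it in 0 of 411 and 0 of 967 cells. Median depths lay between 23983 and 25179 UMIs at E8.5 and between 30974 and 32445 UMIs at E9.5 in the labelled, dorsal spinal cord and ventral hindbrain cells. These are descriptions with no test, since the labels were themselves assigned from expression.

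Markers of other levels of the neural axis were present in many of these cells, and their shares differed between the stages. Otx2 was detected in 58.6% of the labelled cells at E8.5, near the 52.8% of midbrain/hindbrain boundary cells, but in 11.5% at E9.5. Hoxb9, a spinal cord Hox gene, was detected in 7.1% at E8.5 and in 56.5% at E9.5, near the 52.4% of dorsal spinal cord progenitors at E9.5 and far above the 16.1% and 8.3% of ventral and dorsal hindbrain progenitors. Hoxc8 followed, from 0 of 70 cells, which allows up to 4.29%, to 35.6%. Hoxb4, expressed in the posterior hindbrain and spinal cord, went from 15.7% to 67.0%. Hoxb1 was found in 5.7% and 17.9% of cells, while spinal cord progenitors held it in 53.9% and 48.6%, and it therefore did not single out a rhombomere in these data. Without thinning the shares at E8.5 and E9.5 were 62.9% and 15.8% for Otx2, 10.0% and 61.5% for Hoxb9, 2.9% and 48.6% for Hoxc8, 32.9% and 85.4% for Hoxb4 and 12.9% and 36.4% for Hoxb1. The plot of marker levels by label gives the same genes as CPM. The cells are called the labelled cells below, after the rule that chose them, and no other cell type name is given to them.

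The labelled cells could be divided by these genes. A cell was put in a spinal range if it held at least 4 UMIs of a list of spinal cord genes (Hoxb8, Hoxb9, Hoxc8, Hoxc9, Hoxc6, Hoxa7, Hoxa9 and the Cdx genes) after thinning, and in an anterior range if it held at least 2 UMIs of a list of forebrain and midbrain genes (among them Otx2, Otx1, Dmbx1 and Lhx2). These cut-offs were set after the values were seen, and 8 and 11 cells held exactly 4 and 3 spinal UMIs, while 17 and 37 held exactly 2 and 1 anterior UMIs. At E8.5, 37 of 70 cells (52.9%) fell in the anterior range, 3 in the spinal range and 30 in neither. At E9.5, 233 of 418 cells (55.7%) fell in the spinal range, 49 (11.7%) in the anterior range, 133 (31.8%) in neither and 3 in both. The 3 cells in both had a median of 63408 UMIs and a median doublet score of 0.89, below the study's limit of 1. Such a mix was not particular to the labelled cells. At E9.5 at least 4 spinal UMIs were held by 56.5% of them and 56.4% of dorsal spinal cord progenitors, and by 13.1% of ventral and 4.5% of dorsal hindbrain progenitors. At least 2 anterior UMIs were held by 52 of 418 labelled and 90 of 967 dorsal spinal cord cells. At E8.5, 152 of 343 midbrain/hindbrain boundary cells held as many.

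**Figure D1:**
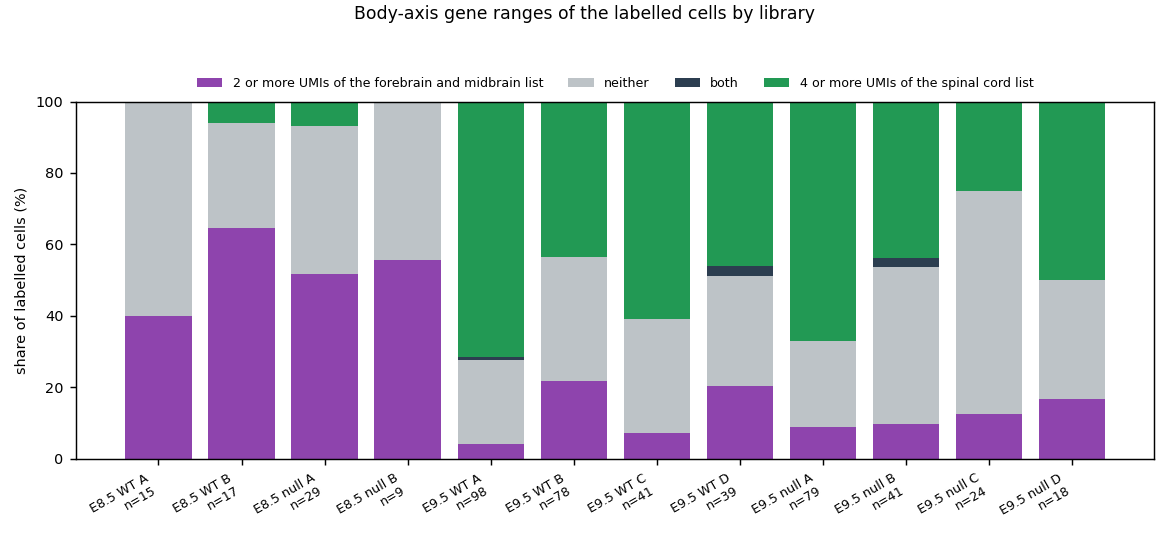
Stacked shares (percent) of the labelled cells of each library in the anterior range, in neither, in both and in the spinal range, with the number of cells under each bar. Anterior cells make up at most 64.7% of an E8.5 library and spinal cells at most 71.4% of an E9.5 library.

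In the anterior range of E9.5 the pooled level of Otx2 was 225 CPM and that of Otx1 80.0 CPM. Otx2 was 1.4 CPM in the spinal range, where Hoxb9 stood at 376 CPM. The spinal range also held more of 2 genes of the ventral neural tube, Olig2 (98.5 CPM, against 23.7 CPM in the anterior range and 19.7 CPM in neither) and Nkx6-1 (100 CPM, against 12.4 and 38.3 CPM), which were not used to make the ranges, while Nkx2-2, which marks more ventral cells, was not higher there (1.4 CPM, against 11.8 CPM in the anterior range and 1.6 CPM in neither). Cells in neither range held Hoxd4 at 195 CPM, Hoxb4 at 152 CPM, Hoxa2 at 94.4 CPM and Hoxb2 at 89.6 CPM, with no Egr2 UMI. In the spinal range Hoxb4 (153 CPM) and Hoxb2 (92.8 CPM) were about as high and Hoxd4 (94.3 CPM) and Hoxa2 (63.9 CPM) were lower, and the cells in neither range also held Hoxb8 at 52.0 CPM and Hoxb9 at 17.9 CPM.

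Every E8.5 library held anterior cells, 6 of 15 cells and 64.7% in WT libraries A and B and 51.7% and 55.6% in null libraries A and B, and the genotypes overlapped. At E9.5 the spinal range made up 71.4%, 43.6%, 61.0% and 46.2% of WT libraries A to D and 67.1% and 43.9% of null libraries A and B and 6 of 24 and 9 of 18 cells of null libraries C and D. Null library C was the lowest, with 62.5% of its 24 cells in neither range, and the other 3 null libraries lay within or next to the WT range. The anterior range took 4.1% to 21.8% of the WT libraries and 8.9% to 16.7% of the null libraries. The makeup of the labelled cells along the axis therefore varied between libraries of 1 genotype, and its part in the differences of single genes between libraries was not tested.

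The share of labelled cells among all analysed cells was compared between null and WT libraries. Each share was taken within its own sorted fraction, so it also depends on how many cells of other types that fraction held. At E9.5 the shares were 3.18%, 2.95%, 2.15% and 0.99% in WT libraries and 1.83%, 1.70%, 1.51% and 1.16% in null libraries. The WT libraries held both the 3 highest and the lowest share, so the groups overlapped. The means were 2.32% and 1.55%, and the difference of −0.77 percentage points had a p of 0.229 (exact two-sided permutation test over 4 against 4 libraries, smallest possible p 0.029). In edgeR's quasi-likelihood test over 71 types the log2 fold change was −0.63 (SE 0.39, adjusted p = 0.965). Without WT library D, the lowest, it was −0.91 with an unadjusted p of 0.0171 and an adjusted p of 0.497. At E8.5 the shares were 0.59% and 0.44% in WT and 0.76% and 0.79% in null libraries, which did not overlap, but 2 against 2 libraries cannot give an exact two-sided p below 0.333. The edgeR log2 fold change there was 0.58 (SE 0.58, adjusted p = 0.984), and 0.59 (SE 1.19, adjusted p = 0.989) without null library B. A difference in share between the genotypes was thus not detectable with these numbers of cells and libraries.

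The atlas stage transferred with the label was compared between the genotypes. The median was E9.25 in every library of both stages, and 59.4% of the WT and 57.9% of the null cells taken at E8.5 matched atlas cells of E9.25. The group means were 9.18 days in WT and 9.14 days in null cells at E8.5 and 9.25 and 9.24 days at E9.5, so the measure barely separated cells taken a day apart and the test of it could hardly show a lag. Over the libraries with more than 15 labelled cells the mean mapped stage of null cells differed from that of WT cells by 0.022 days (exact two-sided permutation of genotype within stage, p = 0.543, smallest possible p 0.0143). Both stages had equal weight in this value although E8.5 had 1 library of each genotype, and E9.5 alone gave −0.0057 days (p = 0.943 by the exact permutation test). The difference turned to −0.022 days with all libraries (exact permutation p = 0.81). The share of cells with a UMI of Egr2 differed by −2.94 percentage points between null and WT (p = 1) and that of Hoxb1 by −2.06 (p = 0.514) by the same exact permutation test, with p-values of 1 and 0.771 adjusted over the 3 genes tested. For Egr2 the difference rests on E8.5 WT library B, in which 1 of 17 cells held a UMI, so that its test could not pass.

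Expression of null and WT cells was compared at E9.5 on counts summed per library, 4 against 4 libraries, with edgeR's quasi-likelihood test. Of 8533 genes tested, 6 passed an adjusted p of 0.05 with a change of more than 2-fold (0.0703%), 2 higher (0.0234%) and 4 lower (0.0469%) in null cells, and 22 passed at any fold (0.258%), 13 higher (0.152%) and 9 lower (0.105%). At an unadjusted p of 0.05 there were 777 genes (9.11%). DESeq2 gave 7 genes past the same limits, and 15 of the 22 genes also passed with it. All 22 had levels that did not overlap between the genotypes, which was so for 6.01% of the genes tested. None of the 22 belonged to any of 24 lists of 400 genes chosen for neural patterning, signalling, STAT3 targets, cell cycle and other cell types.

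Among the 6 genes past both limits the largest fall was in Grb10 (chr11:11930508-12038683, minus strand, GRCm38, a protein-coding gene). Its level was 343, 314, 407 and 369 CPM in the WT libraries and 21.0, 21.9, 29.3 and 1.2 CPM in the null libraries. Every null library lay more than 10-fold below every WT library. The log2 fold change was −4.12 (SE 0.31, adjusted p = 0.0039). Grb10 was 284 CPM in the 14 tdTomato-positive cells of the WT fractions that had been left out.

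Cwc22, which encodes a splicing factor (chr2:77881159-77946375, minus strand), rose most. It stood at 42.7, 42.5, 43.7 and 27.2 CPM in WT and at 169, 127, 131 and 145 CPM in null libraries. The lowest null library was thus almost 3 times as high as the highest WT library, and the log2 fold change was 1.88 (SE 0.12, adjusted p = 4.46e-12). Near-identical copies of Cwc22 exist in mouse genomes and the counting could divide reads among them, so its level is uncertain.

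Of the other 4 genes, Hist1h4i (chr13:22040636-22041362), a replication-dependent histone H4 gene, was at 61.8, 53.7, 80.8 and 115 CPM in WT and 19.8, 14.6, 23.3 and 17.0 CPM in null libraries (log2 fold change −1.95, SE 0.28, adjusted p = 0.0296). It no longer passed when any 1 of 5 libraries was left out, namely WT library C or any null library, although the change stayed between −2.05 and −1.85 there, and histone genes share near-identical sequence. Pusl1 (chr4:155887879-155891781), named as a pseudouridine synthase-like gene, was 18.2 to 24.7 CPM in WT and 5.5 to 12.1 CPM in null libraries, a log2 fold change of −1.49 (adjusted p = 0.0019). Pxylp1 (chr9:96823336-96892669), a xylose phosphatase of proteoglycan synthesis, was 20.9 to 28.1 CPM in WT and 8.6 to 10.3 CPM in null libraries, with a log2 fold change of −1.22 (adjusted p = 0.0026). Dph7 (chr2:24962400-24972163), which acts in the modification of elongation factor 2 by diphthamide, was 4.1 to 8.9 CPM in WT and 13.3 to 17.3 CPM in null libraries, with a log2 fold change of 1.28 (adjusted p = 0.0323). Dph7 lost its call in 7 of 8 fits that left out a library, all but the one without WT library A, and with DESeq2 (adjusted p = 0.0953). Without WT library A, the largest, the number of genes past both limits rose from 6 to 10.

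The 16 genes that passed with smaller changes had log2 fold changes between −0.85 and 0.98. Among them were the imprinted genes Zdbf2 (0.96, 56.1 to 79.0 CPM in WT and 116 to 154 CPM in null libraries), Impact (0.73) and Kcnq1ot1 (−0.32), an antisense RNA whose reads cannot be told apart from those of Kcnq1 unless strand was used in counting. Tpm3-rs7 fell (−0.85) while Tpm3, of nearly the same sequence, rose (0.51), and their reads could have been divided between them. Csnk2a1, the catalytic subunit of casein kinase 2, was lower in null cells (78.4 to 112 CPM in WT and 48.1 to 50.9 CPM in null libraries, log2 fold change −0.85), and Psmd8, a proteasome subunit, was higher (216 to 249 and 314 to 358 CPM, log2 fold change 0.56).

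**Figure D2:**
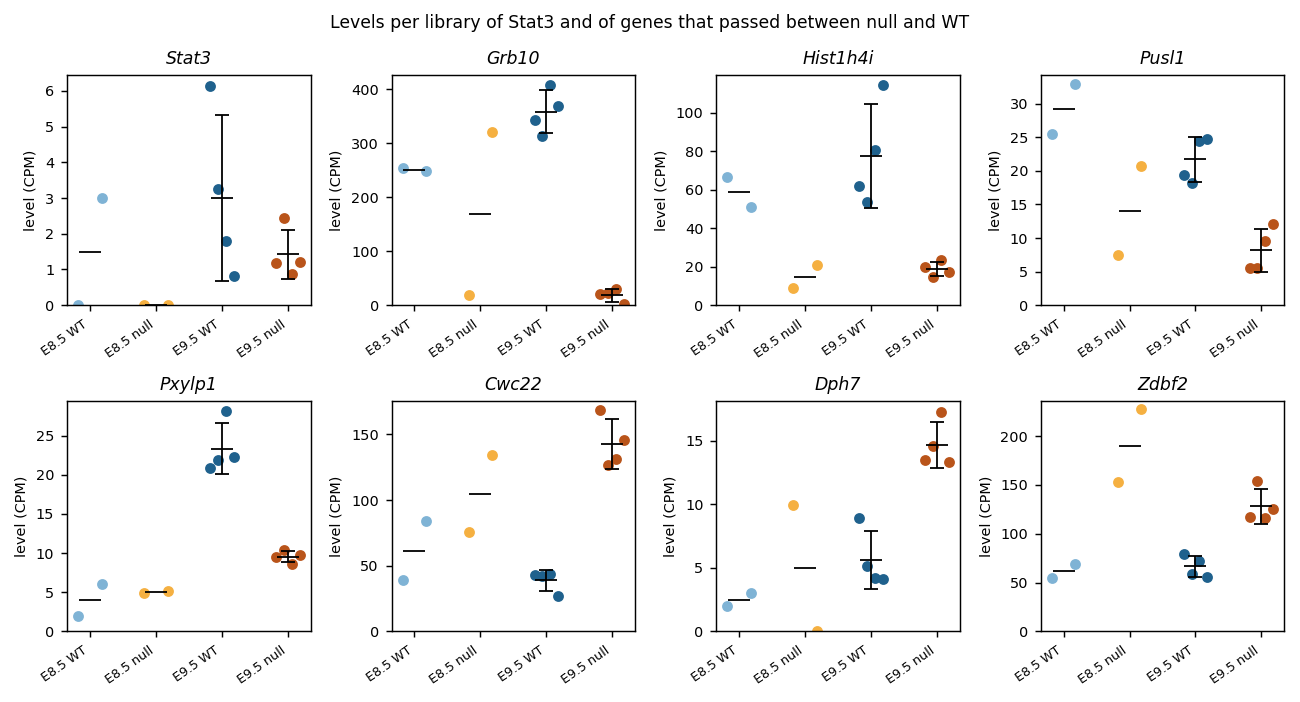
Level (CPM) of Stat3, of the 6 genes that passed both limits at E9.5 and of Zdbf2 in each of the 12 libraries (points), with the group mean (bar) and, for the E9.5 groups of 4 libraries, the SD. For Grb10 the E9.5 WT libraries sit at 314 to 407 CPM and the null libraries at 1.2 to 29.3 CPM, and the library labelled E8.5 null B sits above the E8.5 WT libraries at 320.5 CPM.

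Genes of the tissue itself were among the 24 lists. Of the 400 list members 216 were tested at E9.5 and 0 passed with edgeR, while DESeq2 passed 1. With 0.258% of all genes passing, a count of 0 is near the background and is no result about the lists. At an unadjusted p the background was 9.11%. Levels did not overlap between the genotypes in 6.01% of all genes tested, and no list had more than 2 such members. A lack of overlap named below therefore describes levels and is no result about a member. The list median of the log2 fold change was between −0.79 and 0.20, against −0.0039 for all genes tested. The lowest median belonged to the forebrain and midbrain list, of which only Otx1 and Otx2 were tested. The plot of list members shows each gene.

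**Figure D3:**
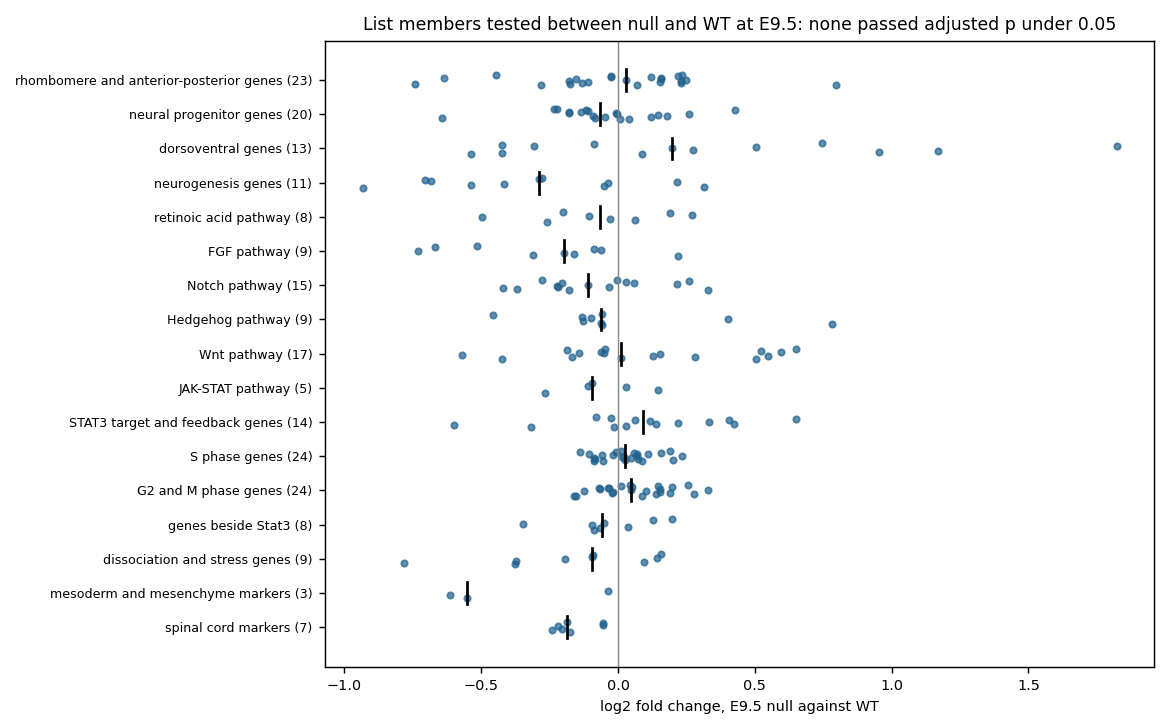
Log2 fold change of null against WT at E9.5 (x axis) for each tested member (point) of the 17 lists with at least 3 of them, the number tested in brackets and the list median as a bar. Medians of the lists shown lie between −0.55 and 0.20, and no member passed an adjusted p of 0.05 with edgeR.

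Among genes of anterior-posterior identity none of 23 tested passed. Hoxb4 was 101 to 158 CPM in WT and 83.6 to 148 CPM in null libraries (log2 fold change −0.17, SE 0.16, adjusted p = 0.796), and Hoxd4 was 60.2 to 133 and 95.8 to 137 CPM (0.12, SE 0.24, adjusted p = 0.925). Hoxb9 was 138 to 274 CPM in WT and 111 to 286 CPM in null libraries (−0.06, SE 0.33, adjusted p = 0.983). Hoxb1 was 30.4, 13.1, 23.9 and 17.3 CPM in WT and 17.0, 18.9, 25.9 and 6.1 CPM in null libraries (−0.28, SE 0.32, adjusted p = 0.839). Each pair of ranges overlapped.

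The 20 genes of neural progenitors were all tested and none passed. Sox2 was 531, 475, 560 and 488 CPM in WT and 427, 421, 476 and 447 CPM in null libraries (log2 fold change −0.18, SE 0.07, adjusted p = 0.338). WT library B fell just below null library C, so that the groups met. Vim and Nes, intermediate filament genes of progenitors, had log2 fold changes of 0.04 and −0.12, and Sox11 of −0.01. Msi1, an RNA-binding protein of neural stem cells, did not overlap between the groups (87.4 to 99.4 CPM in WT and 60.6 to 85.8 CPM in null libraries) and had a log2 fold change of −0.23 with an adjusted p of 0.523.

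In the dorsoventral list none of 13 tested genes passed. Msx1, a BMP-induced gene of the dorsal neural tube, was 22.1 to 43.7 CPM in WT and 36.4 to 118 CPM in null libraries, a log2 fold change of 1.17 with an SE of 0.36 and an adjusted p of 0.40. Olig2, of the ventral motor neuron domain, ranged from 46.2 to 132 CPM in WT and from 16.4 to 145 CPM in null libraries. Nkx6-1, another ventral gene, was 70.9 to 96.9 CPM in WT and 27.6 to 68.9 CPM in null libraries without overlap (−0.43, adjusted p = 0.602). The spread of these genes between libraries of 1 genotype was of the order of the difference between genotypes. Further members of both ends of the dorsoventral axis went either way. The ventral genes Nkx2-9 and Nkx6-2 had log2 fold changes of 1.82 (SE 0.87) and 0.27. The dorsal genes Msx3, Pax3 and Pax7 had 0.74, 0.09 and −0.31. Of 11 tested genes of neurogenesis none passed. Neurog2, which drives progenitors into neurons, was 39.2 to 62.8 CPM in WT and 16.4 to 50.9 CPM in null libraries (−0.68, adjusted p = 0.406).

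Of the signalling pathways, the JAK-STAT list had 5 of 21 members high enough to test and none passed. Il6st, the shared receptor chain gp130, was 9.9 to 19.7 CPM in WT and 10.4 to 15.8 CPM in null libraries, and Cntfr, a receptor that pairs with it, was 56.9 to 88.6 and 61.8 to 81.0 CPM. Jak1 was 33.0 to 37.2 CPM in WT and 20.6 to 32.8 CPM in null libraries, which did not overlap (log2 fold change −0.27, SE 0.15, adjusted p = 0.626). Among 14 tested STAT3 target and feedback genes none passed with edgeR. Pim1, a kinase gene induced by STAT3 in several cell types, was 76.6, 74.7, 74.2 and 74.2 CPM in WT and 79.5, 108, 120 and 89.7 CPM in null libraries. The groups did not overlap, and the log2 fold change was 0.42 (SE 0.12, adjusted p = 0.145). Ccnd1, the cyclin of the G1 phase, was 301, 319, 233 and 284 CPM in WT and 418, 500, 493 and 319 CPM in null libraries. WT library B and null library D almost met. Its log2 fold change was 0.65 (SE 0.16) with an adjusted p of 0.272 in edgeR and 7.39e-05 in DESeq2, the single member on which the tools differed. Socs3, the classic feedback inhibitor, was 5.1 to 11.1 CPM in WT and 4.7 to 12.1 CPM in null libraries (log2 fold change 0.06, SE 0.33, adjusted p = 0.981).

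In the other pathways no member passed either: 0 of 8 for retinoic acid, 0 of 9 for FGF, 0 of 15 for Notch, 0 of 9 for Hedgehog and 0 of 17 for Wnt. Crabp2, a retinoic acid carrier, stood at 949 to 1146 CPM in WT and 977 to 1361 CPM in null libraries. Ptch1, the Hedgehog receptor and target, had a log2 fold change of −0.06, Notch1 of −0.18 and Hes5, a Notch target, of −0.11. Smo did not overlap (96.0 to 99.3 and 80.0 to 92.2 CPM), with a log2 fold change of −0.13 and an adjusted p of 0.73. All 24 S phase genes and all 24 G2 and M phase genes were tested and none passed, with list medians of 0.02 and 0.05. Ube2c, which tags mitotic cyclins for breakdown, had the lowest adjusted p of any list member (log2 fold change 0.33, SE 0.08, adjusted p = 0.14), with 313 to 413 CPM in WT and 384 to 479 CPM in null libraries. The median SE over all genes tested was 0.17.

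Of the marker lists of other cell types, the erythroid list did not overlap between the genotypes at E9.5. The summed level of 12 erythroid genes, among them haemoglobins, was 250 to 1381 CPM in the E9.5 WT libraries and 6.7 to 70.3 CPM in the E9.5 null libraries. At E8.5 it was 1215 and 995 CPM in WT libraries A and B and 1351 and 346 CPM in null libraries A and B, which overlapped. Haemoglobin genes were left out of the tests, the remaining members were too low to test, and their part in the other differences was not tested. Lists of endothelium, placode and endoderm had no member high enough to test, and those of neural crest and mesoderm had 2 and 3, of which none passed. The same held for 0 of 8 tested genes beside Stat3 on its chromosome, 0 of 9 dissociation and stress genes, 0 of 7 spinal cord markers and 0 of 2 pluripotency genes. Xist was 626 and 690 CPM in E9.5 WT libraries B and C and at most 50.9 CPM in every other library.

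To look for sequence in common, promoter windows of RefSeq (GRCm38.p6, 250 bases before to 50 after the start) were searched for TTC and GAA with any 3 bases between them, the palindromic core that STAT proteins bind, which reads the same on both strands. It was present in 2726 of 32851 windows (8.30%), in 7.65% of the 6780 tested genes with a window, and in 1 of the 15 genes with a window among the 22 that passed. That gene was Zdbf2. Its window, of an upstream start, is printed beside that of Socs3 as the textbook STAT3 target, with the motif in capitals. Pim1 and Ccnd1 were looked up as well, and no window with a match was found for either. The Zdbf2 window is chr1:63200108-63200407 (plus strand, motif from base 9) and the Socs3 window chr11:117969317-117969616 (minus strand, motif from base 97).
Zdbf2: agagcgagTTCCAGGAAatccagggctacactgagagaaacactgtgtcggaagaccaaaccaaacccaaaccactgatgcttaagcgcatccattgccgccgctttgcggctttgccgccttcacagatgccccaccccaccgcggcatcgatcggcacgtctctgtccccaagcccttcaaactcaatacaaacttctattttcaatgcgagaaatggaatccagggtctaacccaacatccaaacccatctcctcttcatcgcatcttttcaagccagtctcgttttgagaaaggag
Socs3: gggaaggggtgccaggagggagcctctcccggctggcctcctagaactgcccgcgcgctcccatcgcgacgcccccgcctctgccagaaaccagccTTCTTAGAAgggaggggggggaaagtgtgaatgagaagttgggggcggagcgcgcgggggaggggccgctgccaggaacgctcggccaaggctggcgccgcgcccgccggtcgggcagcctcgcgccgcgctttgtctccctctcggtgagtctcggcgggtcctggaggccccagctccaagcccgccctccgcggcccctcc
A match is a description of the letters in these windows and no evidence of binding, and the share among the genes that passed was near that of all windows.

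At E8.5 only 1 library of each genotype had more than 15 labelled cells, so the planned test could not be run. With all 4 libraries, added after the cell numbers were known, 4942 genes were tested and 4 passed both limits (0.0809%). Hist1h4i was 66.9 and 50.9 CPM in WT and 8.7 and 20.7 CPM in null libraries (log2 fold change −2.40, adjusted p = 0.0051). Zdbf2 was 55.1 and 68.9 CPM in WT and 153 and 227 CPM in null libraries (1.51, adjusted p = 7.06e-04). Golga3, a Golgi scaffold gene, was 210 and 207 CPM in WT and 79.4 and 67.2 CPM in null libraries (−1.47, adjusted p = 1.95e-04), and Eif3j1, a translation initiation factor with a near-identical copy, was 297 and 222 against 120 and 124 CPM (−1.14, adjusted p = 0.0015). DESeq2 passed 0 genes, and leaving out a library gave 3 to 19 genes, 19 without null library A and 6 without null library B. At E9.5 Hist1h4i and Zdbf2 passed in the same direction, while Golga3 (−0.62, adjusted p = 0.481) and Eif3j1 (−0.11, adjusted p = 0.98) did not pass.

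With both stages in 1 fit, 8859 genes were tested and 10 passed both limits (0.113%), among them all 6 of E9.5. Cwc22 lost its call in 7 of the 10 fits that left out a library, at log2 fold changes of 1.58 to 1.74 against 1.71 with none left out. Baiap2l1 lost it in 7 of 10, at 1.32 to 1.61 against 1.48, and also with DESeq2 and with all libraries. Dph7 lost its call in 4 of 10 and with DESeq2, and Akr1b8 with DESeq2. The 4 genes beside those of E9.5 were Irak1bp1, Baiap2l1 and Cisd3, which were higher, and Akr1b8, which was lower in null cells. The count fell to 6 without E9.5 WT library B and to 5 without E9.5 null library B, and it was 8 (0.0958%) with all 12 libraries, where Grb10 (log2 fold change −3.44) no longer passed and the library labelled E8.5 null B, with its high Grb10, was included. A difference of the genotype effect between the stages was tested as an interaction in 9349 genes, of which 1 passed, Vim (log2 ratio −1.35, adjusted p = 0.0358, 0.0107%). The call was made with 1 E8.5 library of each genotype and was lost in 6 of the 8 fits that left out an E9.5 library. With all libraries the value was 0.18 and 0 genes passed. Vim at E8.5 was 305 and 98.9 CPM in WT and 256 and 51.7 CPM in null libraries. To ask whether the genotype effect at E9.5 differed from that in cells labelled Spinal cord progenitors, an interaction was tested in 8759 genes with library as a block and 0 passed (455 or 5.19% at an unadjusted p of 0.05, 0 with DESeq2). This count was 7 without null library D, 2 without WT library B and 1 without null library A.

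The labelled cells were also compared between the stages. For WT cells the libraries with more than 15 cells were 1 at E8.5 (library B) and 4 at E9.5, and 118 of 9494 genes passed both limits (1.24%), 71 higher (0.748%) and 47 lower (0.495%) at E9.5. With 1 library in an arm its spread is not measured and is assumed to be that of the E9.5 libraries. With all WT libraries, 2 against 4, 197 genes passed (2.27%). The number was 82 without E8.5 WT library B and 118 without E8.5 WT library A, and in the first fit it was 205 without E9.5 WT library D. For null cells 158 genes passed (1.85%) with E8.5 library A alone, under the same assumption, and 211 (2.7%) with both. A fit of the latter kind without E8.5 library A gave 98. The stage groups share no libraries with each other, but the labelled cells of the stages differ in how many lie in the anterior and spinal ranges, which was not separated from change within 1 kind of cell. Values below are of the fits with all libraries unless stated.

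Among the genes of anterior-posterior identity 8 of 24 tested rose and none fell in WT cells, and 11 rose and 1, Otx2, fell in null cells, at an adjusted p of 0.05 and any fold. Of all genes tested 2.39% rose and 4.09% fell in WT cells by that rule, and 2.61% and 2.83% in null cells. Members rose in the fits with more than 15 cells in each library as well. No count is given there, since no share of all genes at any fold is at hand for those fits. Hoxb3 went from 9.8 and 6.0 CPM to 51.9 to 70.0 CPM in WT cells (log2 fold change 2.75) and from 12.4 and 10.3 CPM to 37.6 to 67.3 CPM in null cells (2.13). Hoxa2 rose by 1.98 in WT and by 2.53 in null cells on the log2 scale, from 6.0 to 19.7 CPM to between 47.3 and 79.1 CPM. Hoxb4 rose by 1.68 and 1.58, and Hoxb2 by 1.1 and 1.51. Meis1, a cofactor of HOX proteins, rose by 1.13 and 1.52. The spinal cord list had 3 of 7 tested members higher in each genotype, with Hoxb8 (3.30), Hoxa7 (3.15) and Hoxc8 in WT cells and Hoxc6, Hoxc8 and Hoxa9 in null cells. Hoxc9 had no UMI in the E8.5 null libraries and was 39.7 to 103 CPM at E9.5, at least 25-fold higher against a limit of 3 UMIs over the group. Of the forebrain and midbrain list 1 of 3 fell in WT cells (Dmbx1) and 3 of 3 in null cells, Otx2 by 2.37, Otx1 by 2.63 and Dmbx1 by 3.65 on the log2 scale. Otx2 in WT cells was 72.8 and 180 CPM at E8.5 and 7.4 to 90.7 CPM at E9.5, which overlapped.

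Of 20 progenitor genes 4 rose and 1 fell in each genotype. Sox11, a factor of immature neural cells, was 340 and 357 CPM in WT and 429 and 460 CPM in null cells at E8.5 and 587 to 659 CPM in the E9.5 libraries, and passed in both. Vim was 98.9 and 305 CPM in E8.5 WT and 51.7 and 256 CPM in E8.5 null libraries, against 969 to 1209 CPM at E9.5, with log2 fold changes of 2.20 and 2.40 and adjusted p-values of 0.0583 and 0.0554, so that it did not pass in either genotype although no E8.5 library reached any E9.5 library. It passed in the fits that had E8.5 WT library B or E8.5 null library A alone. Of the genes of neurogenesis 3 of 11 tested rose in WT and 2 of 7 in null cells, and none fell. Elavl3 and Elavl4, RNA-binding proteins of new neurons, rose in both genotypes, Elavl3 from 3.0 to 7.4 CPM to 17.0 to 44.3 CPM (2.71 in WT, 1.91 in null cells). Stmn2, a microtubule regulator of neurons, was 11.8 and 47.9 CPM in E8.5 WT and 6.5 to 15.6 CPM in E9.5 WT libraries (−1.55, adjusted p = 0.0988), and it fell in WT cells in the fit with more than 15 cells in each library (−2.34, adjusted p = 0.0153). Fabp7, a lipid carrier of radial glia, rose by 1.89 and 2.70. Of the Notch list 3 of 15 tested genes rose and 0 fell in WT cells, and 3 of 14 rose and 1, the ligand gene Jag1, fell in null cells. The genes that rose were Notch1, Nrarp and Mfng in both, but none of the list passed in WT cells with more than 15 cells in each library. Nrarp, a feedback inhibitor of Notch, was 10.3 to 21.6 CPM at E8.5 and 65.9 to 127 CPM at E9.5. Lin28a, an RNA-binding protein of early embryonic cells, fell from 122 to 213 CPM to 36.0 to 58.2 CPM (−1.99 in WT, −2.10 in null cells).

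**Figure D4:**
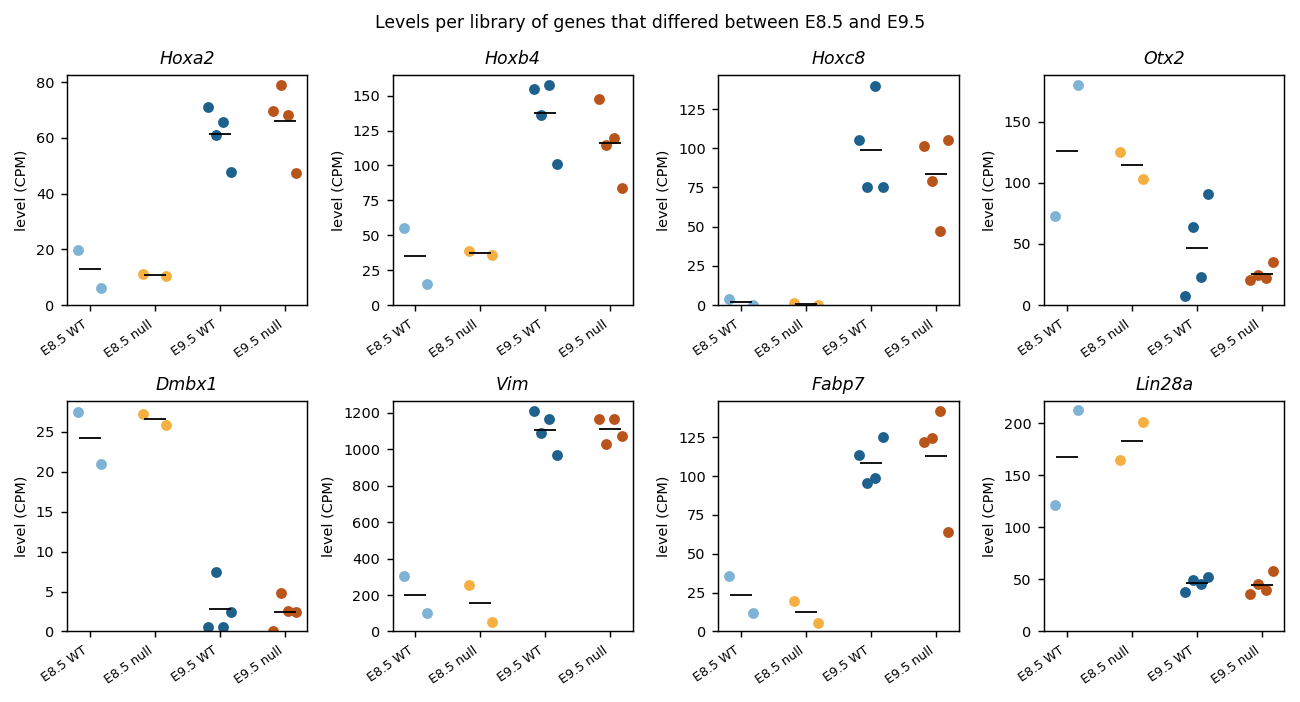
Level (CPM) of 8 genes in each of the 12 libraries (points) by stage and genotype, with the group mean (bar). Hoxa2 lies at 6.0 to 19.7 CPM at E8.5 and 47.3 to 79.1 CPM at E9.5, Lin28a at 122 to 213 CPM and 36.0 to 58.2 CPM, and Otx2 overlaps between the stages in WT cells.

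By the size of their change among genes with a mean of at least 20 CPM in the higher group, Hoxc4, Dach1, Zfp536, Dbx1, Hoxb6, Fst, Mecom and Smad7 came first among the genes called higher, and Fosb, Car4, Irs4, Phlda2, Klk8, Pcsk1n, Kcng1 and Fos among those called lower, in E9.5 WT cells. All 8 of the former had no UMI in E8.5 WT library B, the only E8.5 library of that fit, so their place rests on a count of 0 and no fold is given. With DESeq2 Hoxc4 alone of the 16 passed (adjusted p = 0.0492), 6 of the others that rose did not, and Smad7 and all 8 that fell had no adjusted p. With library A included 6 of the 8 passed, among them Hoxc4 (13.8 and 0 CPM at E8.5, 50.3 to 76.9 CPM at E9.5) and Hoxb6 (5.9 and 0 CPM, 28.9 to 32 CPM), while Dach1 and Fst did not. Of the 8 that fell, Irs4, Phlda2 and Kcng1 were not tested in that fit and the other 5 passed. Phlda2 was 21.0 CPM in E8.5 WT library B but 2.0 CPM in E8.5 WT library A, within the 0.6 to 2.5 CPM of the E9.5 WT libraries. Its fall thus rests on library B. Car4, a membrane-bound carbonic anhydrase, fell from 53.1 and 80.9 CPM to 2.4 to 7.4 CPM in WT (−3.95) and from 79.4 and 165 CPM to 0.9 to 17.0 CPM in null cells (−4.30). Fos and Fosb, immediate early genes that respond to dissociation, were 11.8 and 33.0 CPM and 9.8 and 50.9 CPM in the E8.5 WT libraries and at most 4.2 CPM in the E9.5 WT libraries. The summed stress list was 4890 to 6080 CPM at E8.5 and 5144 to 6184 CPM at E9.5.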

How the data were processed

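The study made droplet libraries of sorted tdTomato-positive and tdTomato-negative cells, and the authors counted UMIs with Cell Ranger against mm10 with the tdTomato sequence added. The deposited counts are whole UMIs per gene and cell of 29453 genes, not normalized. The deposited cell table gives, per cell, the library, stage, sort gate and the authors' filter call, a doublet score from the study's doublet caller (cells above 1 were removed here by the deposited call), and a label score, the fraction of the 25 nearest atlas cells with the transferred name. The table holds none of the study's own comparisons.

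Cells passing the filter and not called doublets were kept. Null cells were those of the tdTomato gate, and WT cells those of the negative gate without a tdTomato UMI. Each library took its group from the stage and gate of its cells, since library names match no single sample. Counts were summed per library over the labelled cells, and libraries with more than 15 cells were fitted, except where all libraries are named. Before tests 8178 genes were left out (gene models named Rik or Gm, genes of haemoglobins, ribosomal proteins, mitochondria and the Y chromosome, Tsix, Xist and the reporter). The study also removed imprinted genes before its tests. They were kept here, so the counts of genes called differ from its design in this. Tests used edgeR 4.0.16 (TMM factors, filterByExpr, quasi-likelihood F test, Benjamini-Hochberg adjustment) in R 4.3.3. A gene passed at an adjusted p of 0.05, and passed both limits with an absolute log2 fold change over 1 as well. The SE is the absolute log2 fold change over the square root of F. DESeq2 1.42.0, its size factors in edgeR, no filter, a higher cell minimum and each library left out were the alternatives. Per-cell shares and exact permutation tests were computed in Python 3.11.15 with numpy 2.4.6, the shares on cells thinned to 10000 UMIs. Exact binomial intervals used scipy 1.17.1. The scripts were tested on simulated data.

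The members, lists and tests were chosen with earlier results of these data known. Named are Stat3 and the markers, list members that passed, up to 4 further members a list by level, and for genotype the 10 genes with the largest rise and the 10 with the largest fall past both limits without overlap. Between WT stages these were the 8 and 8 with a mean of at least 20 CPM in the higher group, and for interactions up to 6 genes. Outside that rule Msi1, Olig2, Mfng, Hoxa9, Hoxc6, Socs3, the genes of smaller change and the imprinted list were chosen after their values were seen, as were the axis ranges. Some results are not reported here. The planned E8.5 test needed more than 15 cells in each library and was replaced by a fit of all 4 libraries.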

Additional observations from a re-analysis of the deposited data

Results flagged for a closer look

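Of 52 groups of 4 libraries examined for 1 value far from the others, 2 stood out, and chance alone picks about 1 in 20. Nes was 362 CPM in E9.5 null library B and 275 to 287 CPM in the other 3. Cwc22 was 27.2 CPM in E9.5 WT library D and 42.5 to 43.7 CPM in the other 3 WT libraries, all below every null library. The genotype effect on Vim passed a test of its difference between the stages (−1.35 on the log2 scale, edgeR, adjusted p = 0.0358), but only with 1 E8.5 library of each genotype in the fit, and with all libraries the value was 0.18 (adjusted p = 0.987).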

How the results depend on the processing

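At E9.5 the 6 genes past both limits became 21 with no filter on low counts, 30 with libraries of over 50 cells only (2 WT against 1 null library) and 5 to 10 when a library was left out. Over both stages the count was 20 with no filter and 5 to 10 with a library left out. The genotype by stage count was 0 with DESeq2, 5 with no filter, 0 with all libraries and 0 to 2 with a library left out. The WT stage count was 70 with DESeq2, 227 with no filter, 197 with all libraries and 116 to 205 with a library left out, or 82 to 223 when all libraries were the start. The null stage count was 59 with DESeq2, 157 to 178 with a library left out, and 98 to 218 from all libraries. At E8.5 it was 0 with DESeq2 and 3 to 19 with a library left out. For the labelled cells against spinal cord progenitors it was 6 with no filter and 0 to 7 with a library left out, and 0 with Dorsal spinal cord progenitors instead. DESeq2 passed 1 list member. The cause of these moves was not tested, beyond the fewer or more genes and libraries that each setting holds.

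The mapped stage difference turned to −0.022 days with all libraries and ran from −0.0057 to 0.032 days with a library left out. The Egr2 share turned to 1.31 percentage points with all libraries, the Hoxb1 share to 2.69 without thinning and 0.274 with at least 2 UMIs, and the Vim interaction to 0.18 with all libraries. The stage difference and the Hoxb1 share missed the threshold of 0.05 in every one of these settings (exact permutation tests). The Egr2 share missed it too, but with so few cells holding Egr2 its test could hardly pass and shows no stability. The E9.5 share of cells kept its direction over all settings (log2 −0.91 to −0.36). So did the E8.5 share (0.38 to 0.79), which was lowest with tdTomato-positive null cells only. Of the alternatives for single named genes 398 kept direction and side of the threshold, 80 kept direction but no longer passed and 1 reversed. No paired analysis was possible because the names of the cells' libraries carry no replicate number or embryo pool. The level of Xist divided the E9.5 libraries of each genotype, but a fit with this division as a block was not run. The limit of over 50 cells was not run for the stage, both-stage and spinal cord fits, nor were fits without the only E8.5 library of a genotype. The median SE of a log2 fold change was 0.17 at E9.5, 0.34 at E8.5, 0.52 between WT stages and 0.35 between null stages. It was 0.65 for genotype by stage and 0.32 for the genotype effect against spinal cord progenitors. These fits differ in both depth and number of libraries.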

Other observations

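A list of 30 imprinted genes, which are expressed from the copy of 1 parent, was drawn up after Grb10, Zdbf2, Impact and Kcnq1ot1 had been seen, so its counts support nothing on their own. At E9.5, 24 of the 30 were tested, the 4 just named passed, and 7 did not overlap between the genotypes, against 6.01% of all genes tested. H19, a maternally expressed long RNA, was 41.5 to 99.7 CPM in the WT libraries. It was 0.79, 0.61, 0.86 and 17.0 CPM in null libraries A to D, so that library D stood above the other 3. Its log2 fold change was −4.64 with an adjusted p of 0.134 (edgeR). Nnat, a paternally expressed gene of neural tissue, was 223 to 272 CPM in WT and 120, 10.3, 218 and 153 CPM in null libraries (−1.02, adjusted p = 0.683). Slc38a4, an amino acid transporter gene, was 5.1 to 8.0 CPM in WT and 8.5 to 13.8 CPM in null libraries (0.95, adjusted p = 0.193).

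Other imprinted genes overlapped between the genotypes. Igf2, the growth factor beside H19, was 16.8 to 37.9 CPM in WT and 9.7 to 61.8 CPM in null libraries (0.64, adjusted p = 0.781). Meg3 and Peg3 had log2 fold changes of −0.01 and −0.24. The 14 tdTomato-positive cells of the WT fractions, left out of the comparisons, held Cwc22 and Zdbf2 at 42.5 CPM each and Hist1h4i at 106 CPM, and 8 of them came from E9.5 WT library D.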
